A study of Mus musculus with 4 samples.

Results

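The proteasome is the barrel-shaped protease that degrades proteins tagged with ubiquitin. The genes described here are the rows of the deposited expression table whose symbols begin with Psm followed by a letter from a to g and a number. The immunoproteasome genes Psmb8, Psmb9 and Psmb10 were left out and are given beside the members. Members were chosen by a rule on names, not on values, though with earlier results of these data known. They numbered 46 of the 23359 rows. Of these, 44 averaged 1 FPKM or more across the 4 libraries and were counted. The other two, at under 1 FPKM in every library, were Psma8, the testis form of an alpha subunit, and Psmb11, the thymus form of a beta subunit. One counted row, Psmc3ip, fits the naming rule but encodes a meiotic recombination factor and no proteasome subunit.

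The libraries came from tumour-initiating stem-like cells, a cell population grown in culture from liver tumours of C57BL/6 mice. The vehicle culture received no compound. The ATRA culture received all-trans retinoic acid, the ligand of the retinoic acid receptors, at 5 µg/ml. The SAHA culture received suberoylanilide hydroxamic acid, an inhibitor of histone deacetylases also called vorinostat, at 0.5 µg/ml, and the ATRA+SAHA culture received both. Treatment lasted 16 hours, and all cultures grew in medium with serum, EGF and dexamethasone. The labels do not give the age of the mice or say how many tumours the cells came from. Each group had 1 library, so no difference below could be set against a spread between replicates, and neither errors nor p-values are given.

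Expression is in FPKM, that is fragments relative to transcript length and to the mapped fragments of the library, which allows levels to be compared between genes. Differences are given as log2 ratios of FPKM + 1, a scale that understates the difference of low genes. The call for a higher or lower gene was a log2 ratio of 1 or more in size, which is 2-fold on that scale. Where a fold is given, it is the quotient of FPKM values. Depth was read from low values, with the median of FPKM times length inside a preset window taken as 1 fragment. The preset window limits what this estimate could be, so it is approximate. By it, an FPKM of 1 over 1 kilobase was worth 95.3 to 101 fragments, depending on the library. The counted member with the fewest fragments had about 95 in its lowest library. Of the defining hepatocyte markers, 0 of 5 were counted, and their summed level was between 0.0657 and 0.145 FPKM. The markers of endothelial cells and lymphocytes were also uncounted, at 0 of 4 each, and 1 of 4 macrophage markers was counted, Cd68, which had a log2 ratio of 1.10 with SAHA, past the call. Krt7 and Sox9 of the bile duct were counted, with ratios of -0.50 and -0.20 with SAHA, while Krt19 and Epcam were uncounted. Summed mesenchymal markers, mostly Vim, lay between 322 and 605 FPKM, lowest with SAHA. The mesenchymal markers Prrx1 and Sparc were called lower with SAHA, at 0.177 FPKM against 8.97 and at 2.65 against 33.4. Col1a1 and Col3a1 of the same list were uncounted. Of the markers of tumour-initiating cells, Cd34 was at 2.29 FPKM with SAHA against 50.8 with vehicle, and Cd44 at 31.5 against 61.8, while Prom1 and Nanog were uncounted. The part of cell composition in the differences below was not tested, and in bulk RNA fewer cells of a type and less RNA per cell cannot be told apart.

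The 26S proteasome is built from a 20S core and a 19S regulatory particle. The core stacks rings of alpha subunits, which form the gate, on rings of beta subunits, some of which carry the proteolytic sites. The 19S particle holds a ring of ATPases that unfolds the substrate, receptors for ubiquitin and a deubiquitinase. Dedicated chaperones assemble both parts, and other activators can replace the 19S particle at the ends of the core. Subunit genes are known to share control by the transcription factor encoded by Nfe2l1, which binds antioxidant response elements.

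Promoter sequence is shown first because the subunit genes differed in how they stood with SAHA although they build 1 complex. RefSeq start sites on GRCm38.p6 were at hand for 38 of the 46 members. The entries not used here are Psma8, Psmb1, Psmb2, Psmb7, Psmc3, Psmd3, Psmd7 and Psmg2. Below are the 250 bases before the start site of Psmd4 and Psmb6, which were high with SAHA, of Psma7, which was near its vehicle level, and of Psme1, which was low. They are written 5′ to 3′ on the strand of the gene, at chr3:95042615-95042864 (minus), chr11:70525107-70525356 (plus), chr2:180042465-180042714 (minus) and chr14:55578244-55578493 (plus). For Psme1 the RefSeq start site, 55578494, lies inside the gene span annotated in GENCODE, 55578123 to 55581529. Its printed bases therefore lie within that span and not upstream of it. Capitals mark matches to TGACNNNGC, the core of the antioxidant response element, to CCAAT, the NF-Y box, and to CCGGAAG, an ETS factor core, on either strand.
Psmd4: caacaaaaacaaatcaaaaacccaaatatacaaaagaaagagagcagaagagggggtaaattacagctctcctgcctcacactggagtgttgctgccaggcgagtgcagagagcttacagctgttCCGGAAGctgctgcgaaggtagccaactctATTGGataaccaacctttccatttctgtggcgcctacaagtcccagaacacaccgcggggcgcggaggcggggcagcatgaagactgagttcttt
Psmb6: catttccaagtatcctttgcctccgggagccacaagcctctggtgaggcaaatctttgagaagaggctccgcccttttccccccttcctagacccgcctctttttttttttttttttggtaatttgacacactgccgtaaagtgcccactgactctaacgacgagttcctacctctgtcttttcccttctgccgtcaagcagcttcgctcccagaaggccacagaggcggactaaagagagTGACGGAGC
Psma7: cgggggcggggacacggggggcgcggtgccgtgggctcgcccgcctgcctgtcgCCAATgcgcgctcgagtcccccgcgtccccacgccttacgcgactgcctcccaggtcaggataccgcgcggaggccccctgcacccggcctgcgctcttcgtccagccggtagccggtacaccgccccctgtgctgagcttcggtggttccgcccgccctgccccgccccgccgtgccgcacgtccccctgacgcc
Psme1: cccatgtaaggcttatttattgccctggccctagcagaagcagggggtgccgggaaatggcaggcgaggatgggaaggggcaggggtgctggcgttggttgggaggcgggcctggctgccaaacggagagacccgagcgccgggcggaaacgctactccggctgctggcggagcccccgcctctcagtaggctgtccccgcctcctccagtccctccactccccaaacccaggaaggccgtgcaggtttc

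Psmd4 held a CCGGAAG match and, as its reverse complement, a CCAAT match. In Psmb6 the match to TGACNNNGC ended on the last base before the start site. Psma7 held a single CCAAT, and the Psme1 stretch held none of the 3 motifs. Psmb4 and Psmc4, which were called higher with SAHA, also held none of them, so this lack did not set Psme1 apart. Over the full windows of 300 bases, 250 before and 50 after the start, CCGGAAG was present in 15 of 38 members (39.5%), against 9.93% of all 27025 genes with a promoter and 23.2% of the 6320 counted ones. TGACNNNGC was present in 6 of 38 (15.8%), against 14.0% of all and 17.4% of counted genes. For CCAAT it was 14 of 38 (36.8%), against 41.1% and 44.5%. Among the members called higher with SAHA, 4 of the 8 with a promoter held CCGGAAG, and 11 of 29 other counted members did. TGACNNNGC stood in 2 of these 8, Psmb6 and Psme4, and in 4 of these 29. No motif contains another, and a match is a description of the letters only.

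Across the 4 libraries most proteasome genes stood highest with both compounds. The combination library held the highest value of 35 of 44 counted members, against 35.9% of all counted genes. Both libraries with SAHA lay above both without it for 30 of 44 members (68.2%), against 34.0% of all counted genes. Only Psma3, an alpha subunit, and Psme1 lay the other way among the 44, against 38.8% of all counted genes. The plot of levels by gene shows these orders.

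**Figure D1:**
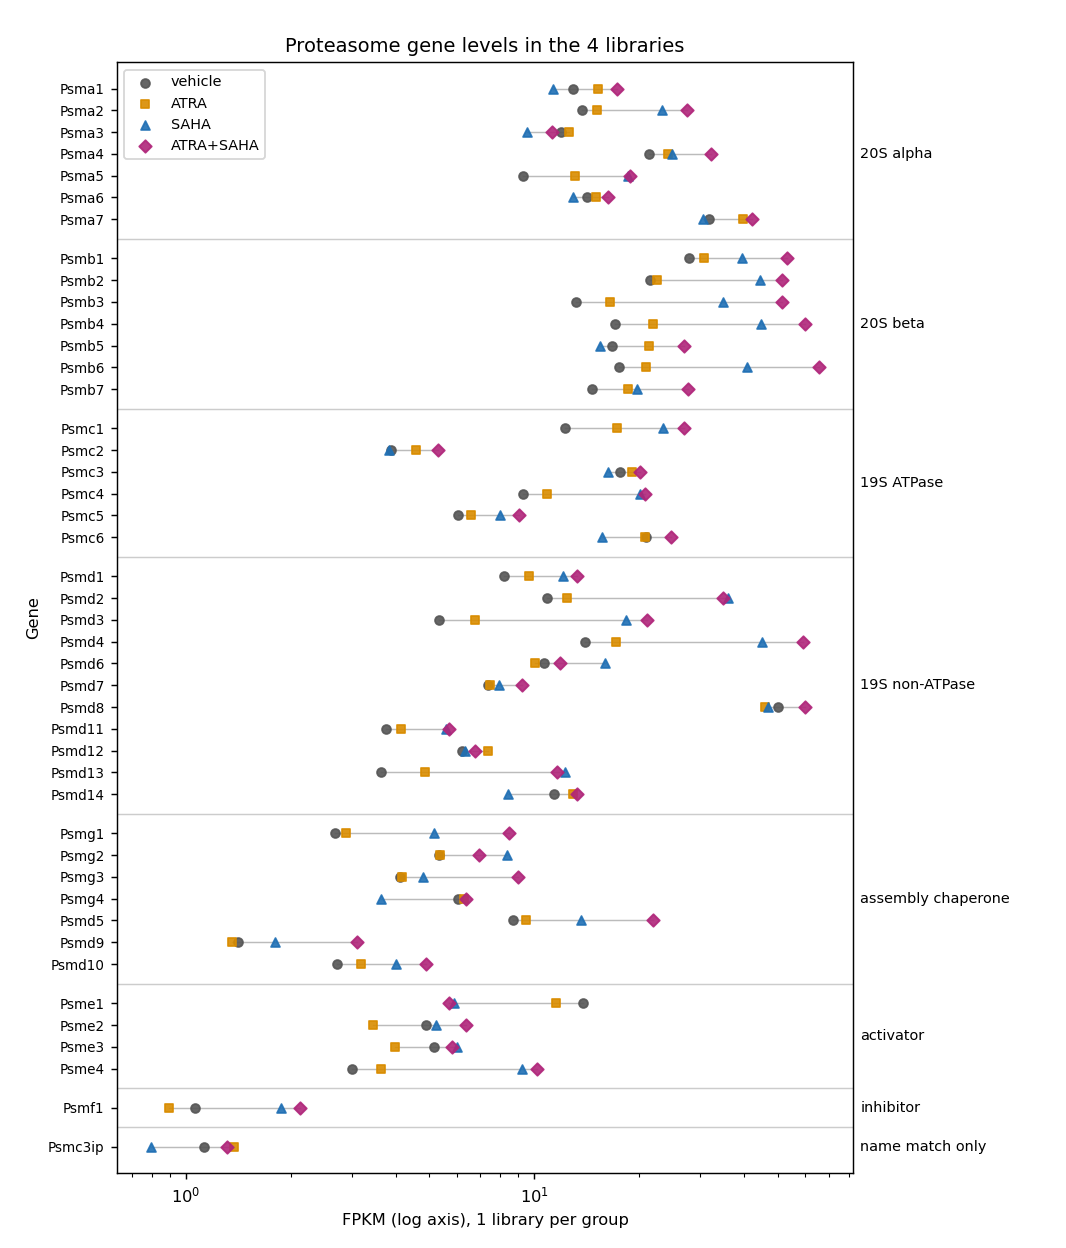
FPKM on a log axis for the 44 counted genes, grouped by role, with 1 point per library and a line from the lowest to the highest. The combination point is the rightmost in 35 of 44 rows. Among core genes the longest lines are those of the beta subunits Psmb3, Psmb6 and Psmb4, at 3.89-, 3.76- and 3.51-fold. Lines of alpha subunits reach 2.02-fold at most, while those of Psmb1, Psmb5 and Psmb7 stay under 2-fold.

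The first comparison set ATRA alone against vehicle and asked what the retinoid did to these genes. Differences were small and mostly upward. Of 44 counted members, 0 were called higher, where 0.917% of all counted genes were, and 0 were called lower, where 1.2% were. The members' median log2 ratio was 0.15, against -0.00 for all 8616 counted genes, and 36 of 44 were above 0, against 49.5% of all. Among genes averaging 5 FPKM or more, the medians were 0.17 for members and 0.07 for all. All 14 core subunits were above 0, from 0.06 to 0.45. Among members of the 19S particle 14 of 17 were, with a median of 0.17. Highest were Psmc1, a 19S ATPase, at 0.46 and Psma5, an alpha subunit, at 0.45. The beta subunit Psmb4 and the chymotrypsin-like catalytic subunit Psmb5 followed at 0.34 each. Activator genes stood apart, with 3 of 4 below 0. Psme3 was at -0.30, Psme1 at -0.24 and Psme2 at -0.40, and they encode the 3 PA28 subunits. Psmd8 and Psmd6, both of the 19S lid, were at -0.13 and -0.07.

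The second comparison set SAHA alone against vehicle. A subset of subunits was more than 2-fold higher: 4 beta subunits, 1 ATPase, 4 other 19S subunits and the activator Psme4. Of 44 members 10 were called higher, where 7.88% of all counted genes were, and 1 was called lower, where 16% were. The median of the members was 0.42 and that of all counted genes -0.12. Members were spread widely, with 31 above 0 and 13 below, where 42.9% of all counted genes were above 0. Among genes averaging 5 FPKM or more, 10 of 36 members were called higher, where 11.4% of all 2958 genes were. After each library was centred on the median of all counted genes, 43.2% of all calls were higher, against 33.0% before.

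Alpha subunits, which form the outer rings and the gate of the core, showed no call with SAHA. Of all counted genes 7.88% were called higher and 16% lower, and 7 genes are too few to set against these shares. The alpha median was -0.06 over 7 counted genes, with 3 above 0 and 4 below. Psma5 was the highest at 0.93, with 9.31 FPKM in the vehicle library, 13.1 in the ATRA library, 18.6 in the SAHA library and 18.8 in the combination library. Psma2 was at 13.8, 15.1, 23.2 and 27.5 FPKM, with the libraries listed in this order from here on. In both genes each library with SAHA lay above those without. Psma7, the most abundant alpha gene, was instead at 31.8, 39.8, 30.5 and 42.3 FPKM, so that both libraries with ATRA were the high ones. Psma1, with 12.9, 15.2, 11.3 and 17.3 FPKM, had that order too. Psma6 was at 14.1, 15.0, 13.0 and 16.3 FPKM, but its locus in the table also covers Nfkbia and Ppp2r3c. Psma3 was at 12.0, 12.6, 9.52 and 11.2 FPKM, and Psma4 at 21.3, 24.2, 24.8 and 32.3. Each of these rows overlaps a second row of the table, and the overlap was not resolved here.

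Of the 7 beta subunits 4 were called higher with SAHA, where 7.88% of all counted genes were. Psmb1 and Psmb7 were at 0.49 and 0.40, and Psmb5 was at -0.11. Psmb6, the caspase-like catalytic subunit (chromosome 11, 70525367 to 70527858, plus strand, mm10), was at 17.5 FPKM in the vehicle library, 20.9 in the ATRA library, 40.7 in the SAHA library and 65.9 in the combination library. Psmb3, a structural subunit, stood at 13.2, 16.5, 34.9 and 51.3 FPKM. Another structural subunit, Psmb4, reached 17.0, 21.9, 44.8 and 59.7 FPKM. For these 3 genes the libraries kept 1 order, from vehicle over ATRA and SAHA to the combination. Psmb2 was 2.07-fold higher with SAHA, at 44.6 FPKM against 21.5, and at 22.5 with ATRA and 51.3 with both. Psmb5, the chymotrypsin-like subunit (chromosome 14, 54614119 to 54618022, minus strand), was at 16.7, 21.4, 15.5 and 27.0 FPKM, a log2 ratio of -0.11 with SAHA. Its order was that of Psma7, with both ATRA libraries high. A row for the microRNA Mir686 lies in the same locus. Psmb7, the trypsin-like subunit, was at 14.7, 18.6, 19.7 and 27.6 FPKM, and Psmb1 at 27.8, 30.7, 39.5 and 53.2. The 3 catalytic subunits thus stood at 1.17, -0.11 and 0.40 for Psmb6, Psmb5 and Psmb7 with SAHA.

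Summed over genes, the alpha subunits were at 115 FPKM with vehicle and 131 with SAHA, 1.14 times the vehicle sum. The beta subunits were at 128 and 240 FPKM, 1.87 times the vehicle sum. Core subunits are present in equal numbers in the particle, but their transcripts were not at equal levels. Over the 14 core genes the highest level was 3.41 times the lowest with vehicle, 3.16 times with ATRA, 4.71 times with SAHA and 5.87 times in the combination.

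**Figure D2:**
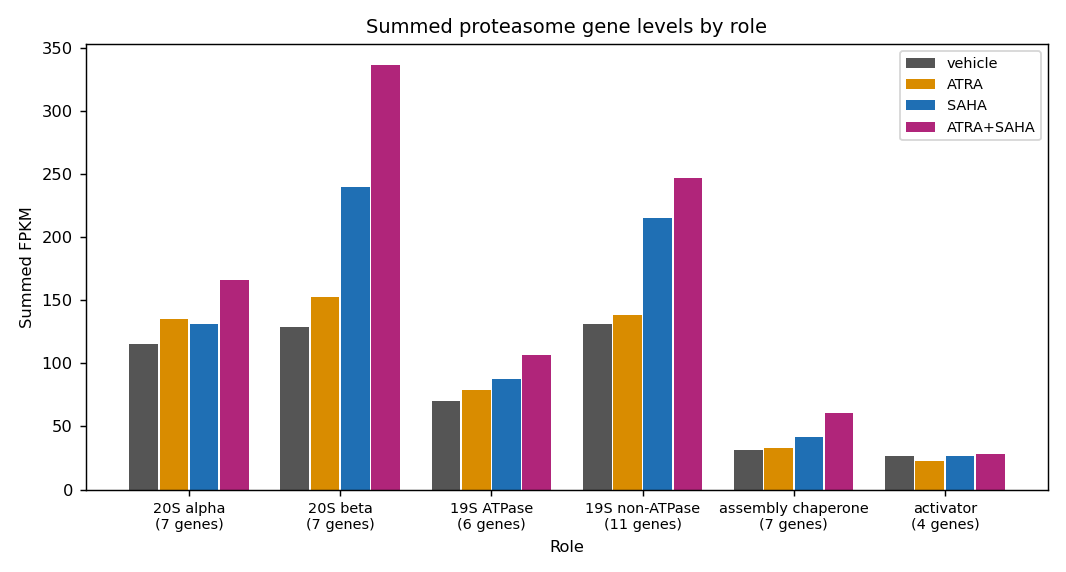
Summed FPKM of the counted genes of each role, 1 bar per library, on an axis from 0. The beta subunits go from 128 FPKM with vehicle to 336 with both compounds, while the activators stay between 22.6 and 28.0.

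In the 19S base, the ATPases that unfold substrates had a median of 0.17 with SAHA. Of these 6 genes 1 was called higher, where 7.88% of all counted genes were. Psmc4 was the called one, at 9.31 FPKM in the vehicle library, 10.9 in the ATRA library, 20.1 in the SAHA library and 20.8 in the combination library. Psmc1 came close, at 0.88, with 12.3, 17.3, 23.5 and 26.9 FPKM. Both rows have their 2 highest values in the libraries with SAHA. Psmc6 was at 21.01, 20.8, 15.7 and 24.8 FPKM, a ratio of -0.40 with SAHA. The remaining ATPases were closer to vehicle. Psmc2 was at 3.89, 4.57, 3.82 and 5.30 FPKM, Psmc3 at 17.6, 19.1, 16.3 and 20.2, and Psmc5 at 6.04, 6.59, 7.98 and 9.07. Their ratios with SAHA were -0.02, -0.10 and 0.35, and none ranged over as much as 2-fold.

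The non-ATPase subunits of the 19S particle held the largest differences of the counted members. Psmd4, the ubiquitin receptor of the particle (chromosome 3, 95032694 to 95042614, minus strand), was at 14.0 FPKM in the vehicle library, 17.1 in the ATRA library, 45.0 in the SAHA library and 59.0 in the combination library. Psmd2, the large scaffold subunit of the base (chromosome 16, 20651652 to 20663414, plus strand), was at 10.9, 12.4, 36.0 and 34.8 FPKM. For Psmd3, a lid subunit, the values were 5.32, 6.76, 18.4 and 21.1 FPKM. Psmd13, also of the lid, was at 3.63, 4.87, 12.2 and 11.7 FPKM. The log2 ratios with SAHA were 1.62, 1.64, 1.62 and 1.51 for these 4 genes. In each of them both libraries with SAHA were at least 2-fold above both others.

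Other lid subunits were much closer to vehicle. Psmd14, the deubiquitinase that strips ubiquitin from the substrate (chromosome 2, 61711694 to 61800376, plus strand), was at 11.4, 12.9, 8.40 and 13.3 FPKM, and its ratio with SAHA was -0.40. Psmd7, with which the Psmd14 protein pairs, was at 7.38, 7.45, 7.93 and 9.24 FPKM. Psmd8, the most abundant member with vehicle, was at 50.1, 45.9, 46.9 and 59.9 FPKM. None of these 3 differed by as much as 2-fold between any libraries. Psmd12 (6.21, 7.38, 6.33 and 6.75 FPKM) had the narrowest range of all counted members, 1.19-fold. Psmd1, the other large scaffold subunit of the base, was at 8.21, 9.67, 12.1 and 13.3 FPKM, and its row shares its locus with Htr2b. The lid subunits Psmd6 and Psmd11 were at 10.7, 10.1, 15.9 and 11.9 FPKM and at 3.75, 4.15, 5.59 and 5.71 FPKM. These 3 genes had ratios of 0.50, 0.54 and 0.47 with SAHA, short of the call.

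**Figure D3:**
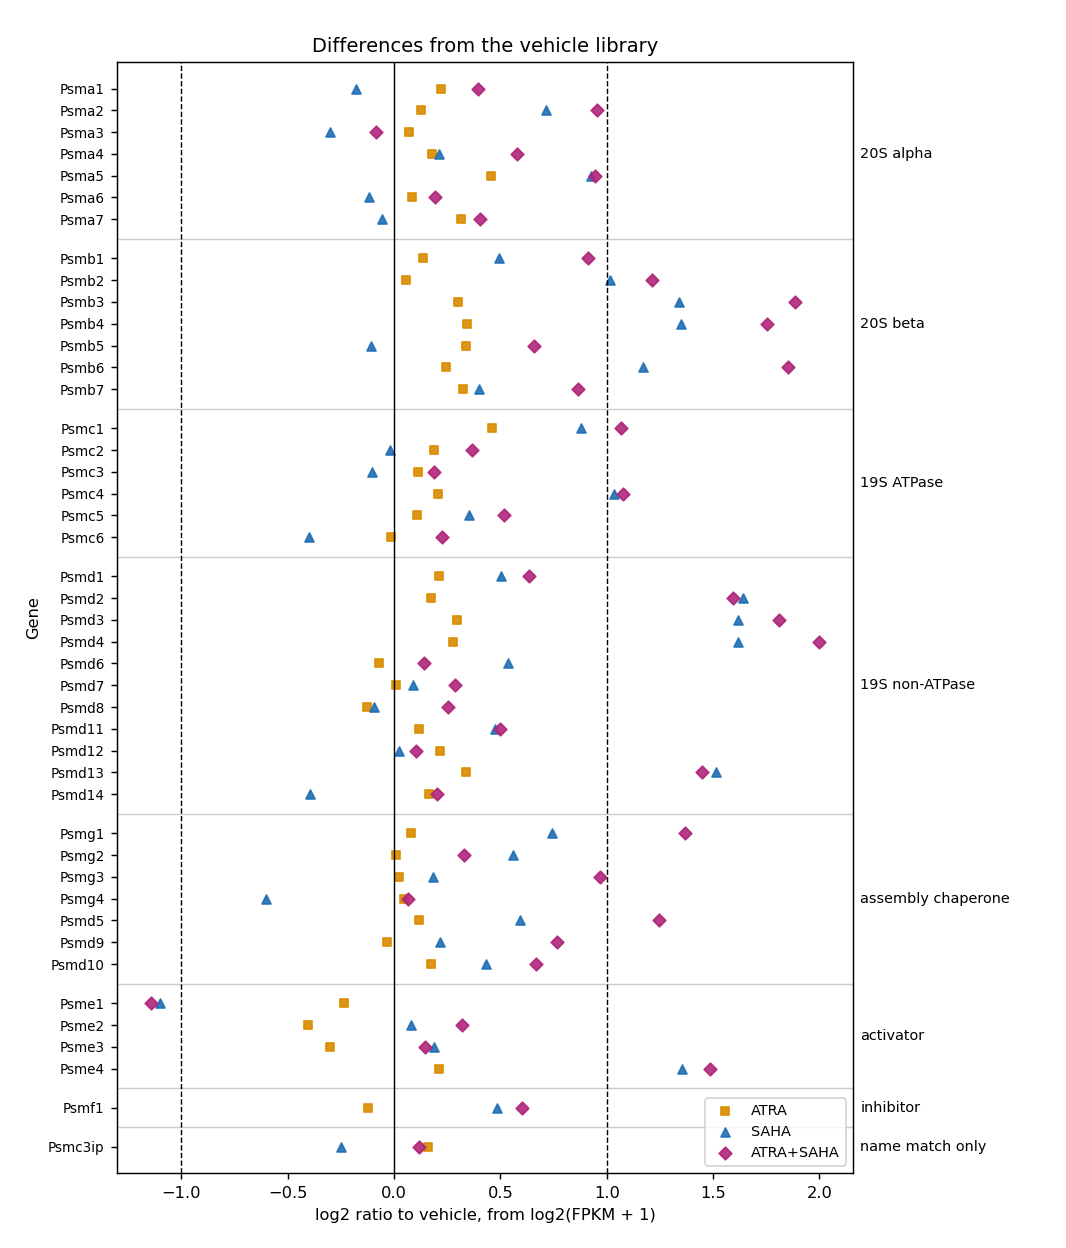
Log2 ratios to vehicle of the 44 counted genes by role, with 1 point each for ATRA, SAHA and ATRA+SAHA, and dashed lines at a ratio of 1 in either direction. ATRA points stay between -0.40 and 0.46, and SAHA points past the right line belong to 4 beta subunits, Psmc4, 4 other 19S subunits and Psme4.

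Assembly chaperones showed no call with SAHA, with a median of 0.43 over 7 genes. Of all counted genes 7.88% were called higher and 16% lower, and 7 genes are too few to set against these shares. Psmg1 and Psmg2 encode partners of the dimer that builds the alpha ring. Psmg1 was at 2.68 FPKM in the vehicle library, 2.88 in the ATRA library, 5.15 in the SAHA library and 8.49 in the combination library, and Psmg2 at 5.34, 5.38, 8.34 and 6.96. Psmg3 and Psmg4 encode the partners of a second such dimer. Psmg3 was at 4.10, 4.18, 4.79 and 8.97 FPKM, and Psmg4 at 6.06, 6.29, 3.64 and 6.38. Within this pair Psmg3 was highest in the combination and Psmg4 was lowest with SAHA. Psmd5, Psmd9 and Psmd10 encode chaperones of the 19S base. Psmd5 was at 8.69, 9.50, 13.6 and 21.9 FPKM, and Psmd10 at 2.72, 3.19, 4.02 and 4.90. Psmd9 was low throughout, at 1.41, 1.35, 1.80 and 3.09 FPKM.

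Activators that dock on the core in place of the 19S particle lay on both sides of vehicle with SAHA. Psme4, which encodes the activator PA200 (chromosome 11, 30771726 to 30880361, plus strand), was at 3.003 FPKM in the vehicle library, 3.63 in the ATRA library, 9.23 in the SAHA library and 10.2 in the combination library, 3.07-fold higher with SAHA. Psme1, a subunit of the interferon-inducible activator PA28 (chromosome 14, 55578123 to 55581529, plus strand), was at 13.8, 11.5, 5.88 and 5.68 FPKM. It was the 1 member called lower, at -1.10 with SAHA, and at 0.427 times its vehicle level. Its locus overlaps the row Emc9. With each library centred on all counted genes its ratio was -0.98, short of a call. Psme2 encodes its partner in the same ring and lies 5911 bases away, at 55587441 to 55591113 on the minus strand. Psme2 was at 4.89, 3.45, 5.23 and 6.36 FPKM, so that it did not share the low SAHA level of Psme1. Psme3, the nuclear form of PA28, was at 5.15, 3.98, 5.99 and 5.79 FPKM. Psmf1, which encodes a proteasome inhibitor, was at 1.06, 0.892, 1.88 and 2.12 FPKM. Psmc3ip, the row that matches by name alone, was at 1.13, 1.38, 0.792 and 1.31 FPKM and shares its locus with Mlx.

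The immunoproteasome genes encode subunits that take the place of the standard catalytic subunits in cells exposed to interferon. None was counted. Psmb8, the counterpart of Psmb5, was at 0.658 FPKM in the vehicle library, 0.434 in the ATRA library, 0.210 in the SAHA library and 0.271 in the combination library. Psmb10, the counterpart of Psmb7, was at 1.94, 1.38, 0.205 and 0.387 FPKM, and Psmb9, that of Psmb6, at 0.245, 0.119, 0.633 and 0.580. Psmb10 and Psmb8 were thus lowest with SAHA, and Psmb9 was not. In every library the standard gene of each pair was at least 7.56 times its counterpart.

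The combination of both compounds was next compared with vehicle. Of 44 members 13 were called higher, where 11.1% of all counted genes were, and 1 was called lower, where 12.6% were. Their median was 0.62, against 0.04 for all counted genes, and 42 of 44 were above 0, against 51.8% of all. Among genes averaging 5 FPKM or more, 12 of 36 members were called higher, where 17.0% of all 2958 genes were. The medians there were 0.65 and 0.14. The 10 members called higher with SAHA were all among the 13, and Psmc1, Psmg1 and Psmd5 were the other three, at 1.07, 1.37 and 1.24. These comparisons share the vehicle library. Psmd4 led, 4.21-fold higher, followed by Psmb3 at 1.88, Psmb6 at 1.85 and Psmd3 at 1.81. The beta subunits had a median of 1.22 and the alpha subunits of 0.40. Lowest were Psme1 at -1.14, Psma3 at -0.08, Psmg4 at 0.06 and Psmd12 at 0.10. Beta subunits summed to 336 FPKM, 2.62 times the vehicle sum, and alpha subunits to 166 FPKM, 1.44 times.

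**Figure D4:**
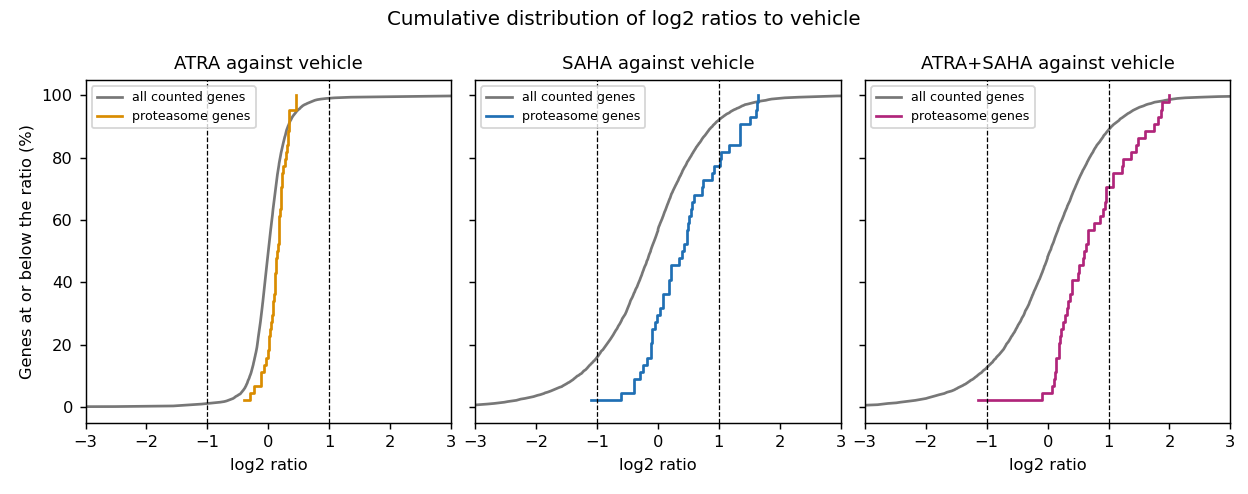
Cumulative share of genes (%) at or below each log2 ratio to vehicle, for the 44 counted proteasome genes and for all 8616 counted genes, with dashed lines at a ratio of 1 in either direction. The proteasome curve lies to the right of the grey curve at its middle, with medians of 0.15, 0.42 and 0.62 against -0.00, -0.12 and 0.04.

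The next comparison asked what ATRA added to SAHA, by setting the combination against SAHA alone. Here 0 of 44 members were called higher, where 3.04% of all counted genes were, and 0 lower, where 0.929% were. The median of the members was 0.27, against 0.14 for all counted genes, and 38 of 44 were above 0, against 66.7% of all. Among genes averaging 5 FPKM or more, the medians were close, at 0.26 for 36 members and 0.24 for all 2958 genes. Highest were the chaperone Psmg3 at 0.78, Psmb5 at 0.76, Psmb6 at 0.68 and Psmg4 at 0.67. Of the 14 core subunits 14 were above 0, with a median of 0.41. Members of the 19S particle had a median of 0.19, and its subunit Psmd6 was the lowest member at -0.40 (11.9 FPKM against 15.9). With each library divided by its upper quartile, the median of the members was 0.04. The 8 genes of the CCT chaperonin, a cytosolic complex described below, had a median of 0.30 here, with all 8 above 0.

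What SAHA added to ATRA was read from the combination against ATRA alone, which leaves out the vehicle and SAHA libraries. Of 44 members 11 were called higher, where 10.5% of all counted genes were, and 0 lower, where 11.9% were. The median was 0.47, against 0.04 for all counted genes. Among genes averaging 5 FPKM or more, 10 of 36 members were called higher, where 14.7% of all 2958 genes were. Psmd4 at 1.72, Psmb6 at 1.61, Psmb3 at 1.58 and Psmd3 at 1.51 led here as well. Psme1 was the lowest at -0.91, followed by Psma3 at -0.15. The combination library is part of both this comparison and the one against vehicle.

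The departure from additivity, the ratio of the combination to vehicle minus those of ATRA and of SAHA, was small for the members. Its median was 0.18 over 44 members and 0.15 over all counted genes, and no member reached 1 in size. Of all counted genes 4.69% were at 1 or above and 1.73% at -1 or below. Psmg3 had the highest value at 0.76, and Psma5 the lowest at -0.44. Assembly chaperones had a median of 0.55 and non-ATPase subunits of the 19S particle of -0.09. All 3 ratios share the vehicle library.

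Genes that work with the proteasome but are no members include receptors, adaptors and deubiquitinases. Of 17 associated genes, 0 were called higher and 1 lower with SAHA, where 7.88% and 16% of all counted genes were. Their median was -0.07, against -0.12 for all. Adrm1, another ubiquitin receptor of the 19S particle, was at 6.43 FPKM in the vehicle library, 6.03 in the ATRA library, 11.7 in the SAHA library and 15.1 in the combination library. Pomp, which encodes the maturation factor of the core, was at 20.9, 22.2, 41.0 and 29.4 FPKM. Shfm1, the small subunit of the 19S lid, was at 62.0, 79.6, 39.2 and 58.7 FPKM. AI314180, the gene of the proteasome adaptor ECM29, was the lower one, at 2.76, 2.49, 0.712 and 0.931 FPKM. These 4 genes did not share an order of libraries.

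Regulators of the subunit genes were also read at the transcript level. Nfe2l1, the transcription factor known to drive proteasome genes, was at 14.6 FPKM in the vehicle library, 11.5 in the ATRA library, 5.21 in the SAHA library and 10.5 in the combination library, and its ratio with SAHA was -1.33. Nfe2l2, its relative and the regulator of antioxidant genes, was at 23.8, 23.2, 9.44 and 8.54 FPKM. Of 8 regulators 0 were called higher and 2 lower with SAHA, where 7.88% and 16% of all counted genes were. Their median was -0.19, against -0.12 for all counted genes, with 3 above 0 and 5 below. The highest was Stat3 at 0.71. These are transcript levels, and the activity of the factors was not measured. The polyubiquitin gene Ubb was at 802, 941, 777 and 1380 FPKM, highest in the combination. Uba6, which encodes a ubiquitin-activating enzyme, had a ratio of 1.10 with SAHA, past the call.

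Other large complexes of the cytosol are set beside the proteasome as a description. The 8 genes of the CCT chaperonin, which folds actin and tubulin, had median ratios to vehicle of 0.19 (ATRA), 0.23 (SAHA) and 0.51 (combination). The 9 genes of the COP9 signalosome, a relative of the 19S lid, had medians of 0.11, -0.00 and 0.31. None of the 17 genes was called in any of these comparisons. The 31 counted members of the core and the 19S particle had medians of 0.19, 0.47 and 0.63. Of these 31, 9 were called higher with SAHA and 10 in the combination. Adrm1 and Shfm1, of the 19S particle but outside the naming rule, were at 0.77 and -0.65 with SAHA. All counted genes had medians of -0.00, -0.12 and 0.04. Of them 7.88% were called higher and 16% lower with SAHA, and 11.1% and 12.6% in the combination.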

How the data were processed

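Total RNA from 4 cultures, depleted of ribosomal RNA per the labels' protocols, was sequenced with 1 library per group. Per the submitters' processing notes, reads were trimmed with Trimmomatic 0.32 and expression came from Cuffdiff on mm10. Aligner, annotation, strand setting and any further scaling: not given in the sources used here. As for units, the deposited values are FPKM, 1 column per library, per the file headers. Values were taken as log2(FPKM + 1), and genes averaging 1 FPKM or more were counted. A difference of 1 or more was called, with no test. Members and lists were chosen with earlier results of these data known. Named in full were the 4 highest and 4 lowest members of each comparison that reached 5 FPKM in either library, and a fixed set of catalytic, receptor, activator and assembly genes. Others were named so that every member is accounted for. Depth was estimated from the median of FPKM times length inside a preset window of low values. It used 204 to 236 genes per library with 1 annotated transcript of 1000 to 4000 bases. Gene coordinates are from GENCODE M21 (mm10), which overlapped the table's loci for 46 of 46 members, and promoters from RefSeq on GRCm38.p6. Alternatives were other pseudocounts, filters and scalings. Python 3.11.15, numpy 2.4.6 and pandas 2.3.3 were used.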

Additional observations from a re-analysis of the deposited data

Results flagged for a closer look

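A pair of members moved in opposite directions with the same compound depending on whether the other was present, by at least 0.2 each way. These differences rest on single libraries and were not tested. For Psmc6, a 19S ATPase, SAHA went with -0.40 in the absence of ATRA and 0.24 in its presence, a difference of 0.64 on the log2 scale. With each library centred on its median these ratios were -0.28 and 0.21, and with each divided by its upper quartile -0.23 and 0.18, the latter under 0.2. For Psme2, a PA28 subunit, ATRA went with -0.40 in the absence of SAHA and 0.24 in its presence, a difference of 0.65. With centring these ratios were -0.40 and 0.10, and with the upper quartile -0.41 and 0.02, so that the ratio with SAHA present was under 0.2 in both.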

How the results depend on the processing

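In all, 105 medians and counts of members were recomputed under 7 alternatives. Of these, 94 stayed within 0.1 (medians) or 1.5 times (counts) of the value given, and 11 moved. With each library centred on its median, the members' median was 0.54 for SAHA against vehicle and 0.12 for the combination against SAHA, and 0 members were lower with SAHA. With each library divided by its upper quartile, these values were 0.58, 0.04 and 0. Psma5 and Psmc1 were then called higher with SAHA as well. A pseudocount of 0.1 gave 16 higher members in the combination against vehicle, where 17.2% of all counted genes were higher. Against ATRA it gave 14 higher members and 1 lower, where 16.4% and 17.7% of all counted genes were. Leaving out the 7 members that share a locus with another row, an alternative chosen after seeing the data, left 37 members, with 0 lower with SAHA and 0 lower in the combination, since Psme1 was among those left out. Their medians were 0.76 for the combination against vehicle and 0.61 against ATRA. The cause of the shifts under scaling was not tested. Leaving out a library was not possible with 1 per group. No paired analysis was possible because each group had 1 library.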
